A study of Mus musculus with 66 samples.

Results

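Integrator is a protein complex that binds RNA polymerase II and ends transcription by cutting the nascent RNA. The genes described here are 10 of its subunits (Ints1, Ints2, Ints4, Ints5, Ints8, Ints9, Ints10, Ints11, Ints13 and Ints14), found by symbol among the 30084 gene symbols of the count table. They were followed in cultured mouse neurons after lentiviral knockdown of 9 genes. The Med13l knockdown comes first because Ints14 was already known to be low there in these data, so that the values of the subunits after Med13l depletion are given as a description, without a test.

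The neurons came from wildtype mouse embryos of stage E16.5, and cultures from males and females were kept apart. Each culture received lentivirus coding for a short hairpin RNA (shRNA) against Med13l, Ash1l, Chd8, Setd5, Dnmt3a, Mbd5, Kdm6b, Kmt2c or Tbr1, a nontargeting shRNA, or no virus. The dose had been set beforehand to leave about 50% of the target, virus was washed away at day 6 of culture, and lysis at day 10 gave RNA for sequencing of polyadenylated RNA. This gave 22 groups of 3 libraries (66 in all), of which the shRNA groups share the lentiviral infection and the no virus groups do not. The cultures were infected as triplicate wells. Since no label says that the 3 libraries of a group came from separate cultures or litters, the p-values measure the spread between these libraries, which may be technical.

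Integrator was found as the machinery that trims the 3′ ends of small nuclear RNAs, and it is now known also to end the transcription of paused polymerases at protein-coding genes. INTS11 is the endonuclease, and it works together with INTS9 and INTS4 as the cleavage module. INTS5, INTS8 and INTS6 hold the phosphatase PP2A, INTS1 and INTS2 belong to the backbone that joins the modules, and INTS10, INTS13 and INTS14 form a module of their own. In neurons Integrator is known for its part in the induction of activity-dependent genes, and inherited defects of INTS1 and INTS8 cause human neurodevelopmental disorders. Mediator is a different complex, which passes signals from transcription factors to the polymerase, and MED13L is a subunit of its kinase module.

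Library totals ran from 13759741 to 66558546 counts with a median of 31827840.5, and all 10 subunits were among the 16145 genes that passed the filter on low counts. The targeted mRNAs were at 22.3% to 54.35% of the nontargeting level, and Med13l itself was at 37.1% in males and 30.3% in females. In CPM (counts scaled to library size, with TMM factors), Med13l measured 79.7, 78.6 and 83.4 in the male and 62.4, 84.7 and 74.0 in the female nontargeting libraries. After Med13l shRNA it measured 29.8, 29.1 and 30.7 in males and 14.99, 27.8 and 24.2 in females, all below every control library. The library labelled Setd5 shRNA male replicate 1 held Setd5 at 141 CPM, within the 133 to 149 CPM of the male nontargeting libraries, and Kdm6b at 23.1 CPM, below their 55.1 to 64.9 CPM. The library labelled Kdm6b shRNA male replicate 1 held Setd5 at 44.9 CPM and Kdm6b at 39.9 CPM, so both libraries went against their labels for Setd5. No Integrator subunit was called in those male comparisons with or without these libraries. Marker genes were as labelled for neurons: the summed level of 6 neuronal markers was 3786 to 6174 CPM in the 66 libraries, against 36.7 to 283 CPM for 5 astrocyte markers and 0.374 to 3.25 CPM for 5 microglial markers.

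The start regions of the 2 subunits on which the results turn are shown here with the motif matches in capitals. They are RefSeq windows on GRCm38.p6, the mm10 assembly named in the submitters' processing notes, 300 bases long and reaching from upstream of an annotated start to shortly after it, read in the direction of transcription. For Ints14 the window is chr9:64960680-64960979 on the plus strand, the downstream one of 2 listed starts. For Ints2 it is chr11:86257545-86257844 on the minus strand.
Ints14: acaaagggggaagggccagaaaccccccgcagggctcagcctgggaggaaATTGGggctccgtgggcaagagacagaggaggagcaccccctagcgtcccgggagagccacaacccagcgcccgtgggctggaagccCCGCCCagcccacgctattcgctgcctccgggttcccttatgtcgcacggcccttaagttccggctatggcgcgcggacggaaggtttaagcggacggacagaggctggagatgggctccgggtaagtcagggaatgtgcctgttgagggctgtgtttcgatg
Ints2: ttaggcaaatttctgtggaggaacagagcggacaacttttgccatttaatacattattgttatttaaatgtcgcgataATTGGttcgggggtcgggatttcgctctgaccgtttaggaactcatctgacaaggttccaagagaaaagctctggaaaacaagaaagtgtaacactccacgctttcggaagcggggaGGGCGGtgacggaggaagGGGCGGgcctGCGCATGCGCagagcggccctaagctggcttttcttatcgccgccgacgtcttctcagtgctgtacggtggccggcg
Both windows held CCAAT on the strand opposite to the gene (printed as ATTGG) and a GC box, GGGCGG, which is printed as CCGCCC where it lies on the opposite strand. Ints2 also held the palindromic NRF1 motif, the longest run of capitals, which overlaps no other motif searched. The shares among all 32851 promoter windows of this length were 37.408% for CCAAT, 35.658% for the GC box and 0.971% for the NRF1 motif, both strands counted. Windows were found for 6 of the 10 subunits (Ints1, Ints2, Ints4, Ints11, Ints13 and Ints14), and of their 7 windows 6 held CCAAT, 6 held a GC box, 1 held the ETS motif CCGGAAG and none held TATAAA, AAGATGGC or TGACGTCA. The shares of these last 4 in all windows were 8.858%, 13.616%, 2.749% and 1.79%. The Ints14 windows overlap and hold the same CCAAT and the same GC box, so each of these sites was counted in both. A match describes the letters of the window and says nothing of binding.

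In control neurons the mean levels of the 10 subunit mRNAs ran from 1.70 to 11.3 CPM per kilobase of exon. Divided by the summed exon length of each gene, the level in the 6 nontargeting libraries of both sexes was highest for Ints10, with 11.3 ± 0.651 CPM per kilobase (SD, n = 6), and for the endonuclease Ints11, with 11.3 ± 0.778. They were followed by Ints1 (9.93 ± 1.51), Ints14 (8.96 ± 0.542) and Ints5 (7.86 ± 0.994). The neighbours among these 5 overlapped in their libraries. A gap with no overlap separated them from Ints4 (4.11 ± 0.474), Ints8 (3.71 ± 0.262) and Ints2 (3.15 ± 0.209). A further gap led to Ints13 (2.003 ± 0.193) and Ints9 (1.70 ± 0.139), which overlapped each other. On this scale the members of the INTS10/13/14 module were therefore unequal in mRNA, with Ints13 well below Ints10 and Ints14, and so were the nuclease Ints11 and its partner Ints9.

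**Figure D1:**
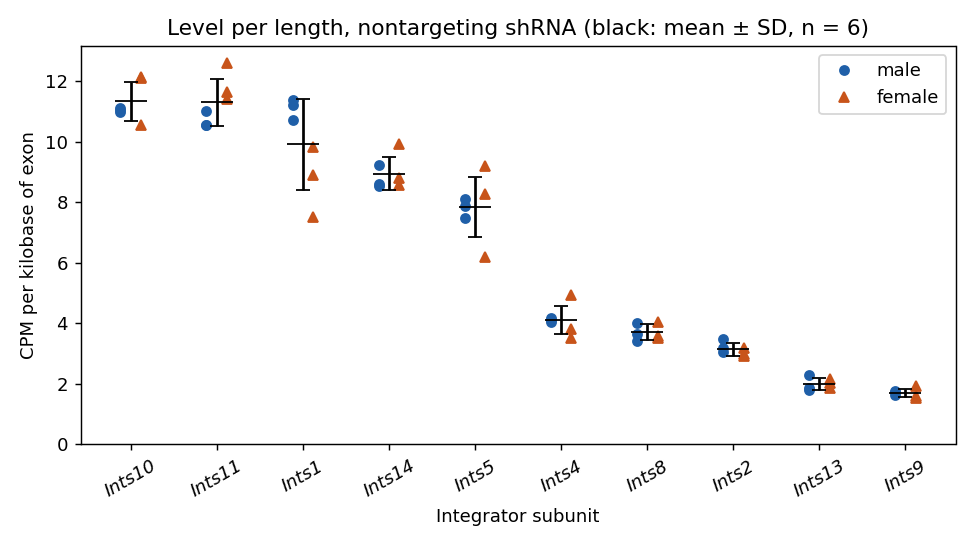
Level of each Integrator subunit mRNA in the nontargeting libraries, in CPM per kilobase of exon (vertical axis), ordered by the mean. Points are libraries (blue circles male, orange triangles female) and black bars are the mean ± SD of the 6 libraries, from 11.3 for Ints10 to 1.70 for Ints9, with gaps between Ints5 and Ints4 and between Ints2 and Ints13.

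Neither infection nor sex gave a called difference in any of the 10 subunits. For nontargeting against no virus the log2 fold changes of the 10 subunits were -0.09 to 0.12 (males) and -0.18 to 0.23 (females), and none was called by edgeR's quasi-likelihood test at a Benjamini-Hochberg adjusted p under 0.05, with 0 of the 10 at an unadjusted p under 0.05 and 0% of all genes called in either sex. Between male and female nontargeting libraries the values ran from -0.15 (Ints11) to 0.34 (Ints1, SE 0.25), also with 0 of 10 called against 0.0434% of all genes. The Ints1 difference came with male libraries at 104, 99.4 and 106 CPM and female libraries at 69.6, 91.0 and 82.6 CPM, so the sexes did not overlap for this backbone subunit although the difference was not called. The share of all genes without overlap between the sexes was not counted.

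Depletion of Med13l left Ints14 mRNA at less than 30% of its control level in both sexes. Ints14, whose product sits beside INTS10 and INTS13, measured 28.03, 30.3 and 28.3 CPM in the male nontargeting libraries and 7.84, 9.81 and 7.67 CPM after Med13l shRNA. In females it measured 28.8, 28.1 and 32.5 CPM with the nontargeting shRNA and 6.58, 8.77 and 10.7 CPM after Med13l shRNA. Every Med13l library was far below every control library, and the groups lay apart in each sex. All Med13l libraries were below their controls for 21.6% of all genes in males and 10.3% in females. The Ints14 means were 28.9 ± 1.27 against 8.44 ± 1.19 CPM in males and 29.8 ± 2.37 against 8.70 ± 2.08 CPM in females (SD, n = 3 each). This is a log2 fold change of -1.78 in males (SE 0.13, 95% interval -2.04 to -1.52) and -1.77 in females (SE 0.13, 95% interval -2.03 to -1.51), or 29.2% and 29.3% of control. The effect in males minus that in females was -0.005 with an SE of 0.18. Among all 16145 genes it had rank 249 from the most reduced in males and rank 160 in females.

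The low level of Ints14 after Med13l shRNA stood apart from the rest of the series. In the other 20 groups the mean of Ints14 lay between 25.7 CPM (Setd5 shRNA males) and 34.9 CPM (Ash1l shRNA males), and single libraries lay between 23.2 and 39.0 CPM. The uninfected neurons had 28.7 ± 2.11 CPM in males and 30.5 ± 2.76 CPM in females (SD, n = 3). None of the 60 libraries without Med13l shRNA thus came near the highest Med13l library of 10.7 CPM. The share of all genes set apart in this way from the other 60 libraries was not counted. In cultures of mixed cells, fewer cells that hold an mRNA and less of that mRNA per cell cannot be told apart.

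**Figure D2:**
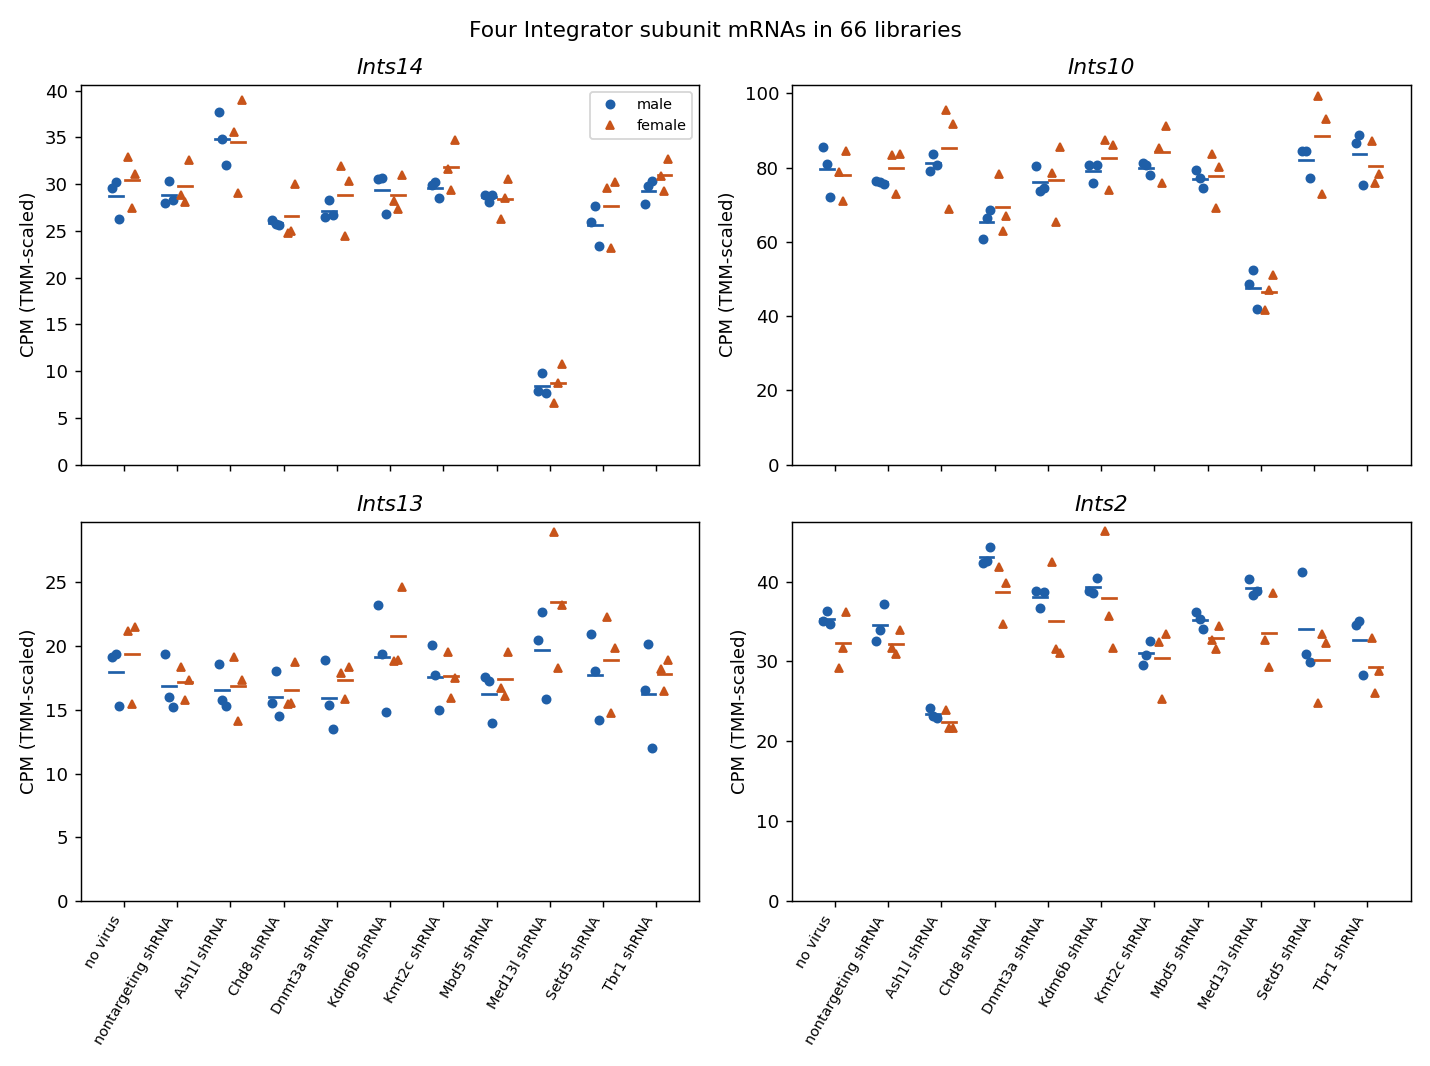
CPM (vertical axes, linear, from 0) of Ints14, Ints10, Ints13 and Ints2 in each of the 66 libraries, by treatment. Points are libraries (blue circles male, orange triangles female) and short lines are group means; Ints14 and Ints10 are lowest in the 6 Med13l libraries, and Ints2 is lowest in the 6 Ash1l libraries.

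Ints10 was also lower after Med13l shRNA, by a smaller factor. This member of the same module measured 76.5, 76.2 and 75.7 CPM in male controls and 48.5, 52.4 and 41.8 CPM after Med13l shRNA. In females the control libraries held 83.5, 72.8 and 83.7 CPM and the Med13l libraries 41.7, 46.9 and 51.1 CPM. The groups lay apart in both sexes here as well, like the share of all genes given above for Ints14. The log2 fold change was -0.68 (SE 0.12) in males and -0.78 (SE 0.12) in females, which is 62.5% and 58.3% of control. Libraries without Med13l shRNA held 60.9 to 99.4 CPM, above the 52.4 CPM of the highest Med13l library. The share of all genes for which this holds was not counted.

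The third protein of the module did not share this direction. Ints13 measured 19.4, 15.97 and 15.2 CPM in male controls and 20.5, 22.6 and 15.9 CPM after Med13l shRNA. In females it was at 18.3, 15.8 and 17.3 CPM in controls and at 28.9, 18.3 and 23.3 CPM after Med13l shRNA. The groups overlapped in both sexes, with means that were higher after Med13l shRNA. The log2 differences were 0.22 (SE 0.19) in males and 0.45 (SE 0.19) in females.

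The remaining 7 subunits lay between -0.48 and 0.25 after Med13l shRNA. In the cleavage module, the nuclease gene Ints11 was at a log2 fold change of 0.22 in males and 0.10 in females, the scaffold gene Ints4 at 0.23 and 0.16, and Ints9 at -0.21 and -0.16 (SE 0.11 to 0.16). The PP2A-binding subunits were at 0.06 and -0.006 for Ints5 (SE 0.15) and at 0.25 and 0.19 for Ints8 (SE 0.19). Of the backbone, Ints2 was at 0.18 and 0.06 (SE 0.13) and Ints1 at -0.19 and -0.48 (SE 0.25). Over all 10 subunits the median log2 fold change was 0.12 in males and 0.03 in females, beside -0.007 and 0.002 over all genes tested. Ints10 and Ints14 were the 2 of 10 past an adjusted p of 0.05 in each sex, where 8.06% of all genes in males and 10.2% in females were past it, and since this contrast chose the genes nothing is read from that count. With the replicate number as a block the count in females was 4 of 10, with Ints1 (-0.50) and Ints13 (0.44) added, beside 27.9% of all genes, and no block value is given as a test here.

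**Figure D3:**
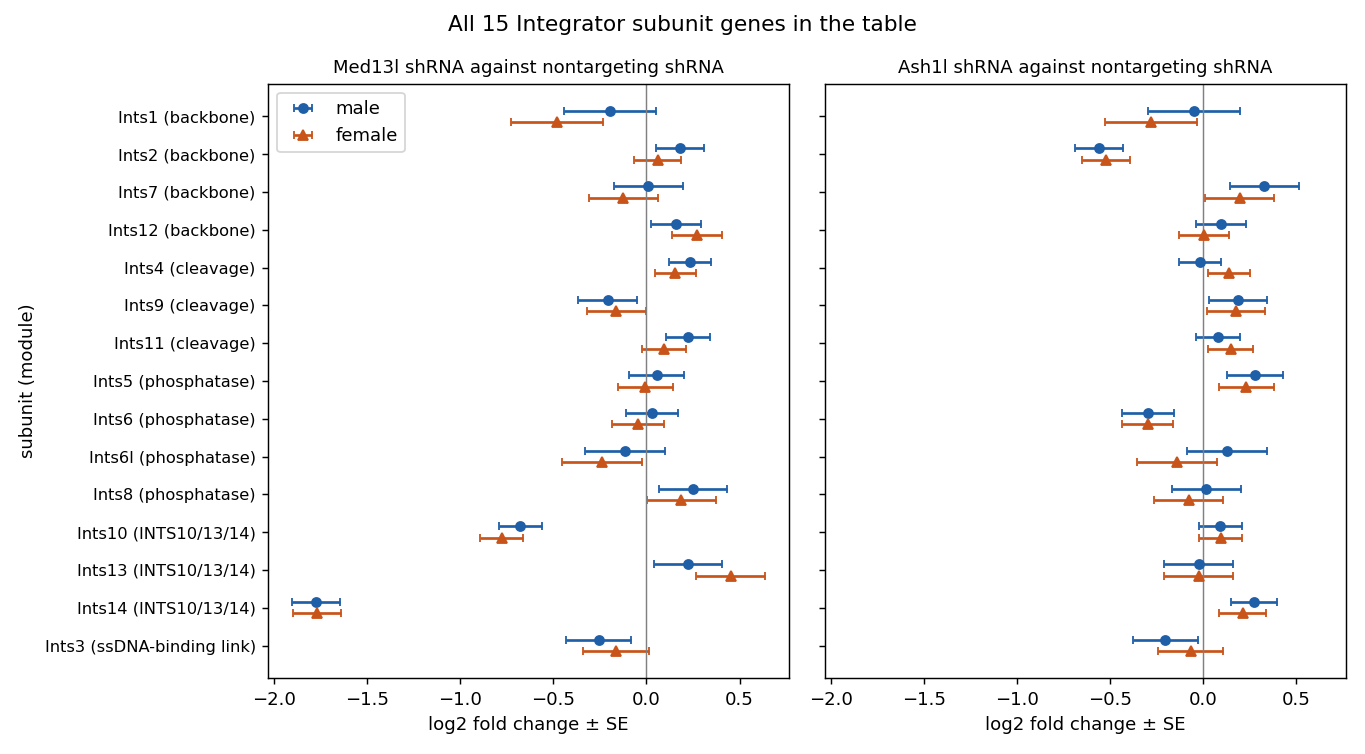
Log2 fold change against nontargeting shRNA (horizontal axes, ± SE) of the 15 Integrator subunit genes in the table, grouped by module, after Med13l shRNA (left) and Ash1l shRNA (right). Blue circles are males and orange triangles are females; Ints14 lies at -1.78 and -1.77 and Ints10 at -0.68 and -0.78 on the left, and Ints2 at -0.56 and -0.52 on the right.

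Ints14 lies at chr9:64960905-64986978 on the plus strand in GENCODE M21 (GRCm38), with 13 exon blocks, and shares no exonic base with another gene. Its nearest neighbour, Hacd3, lies 5 bases beyond the 3′ end of Ints14 on the opposite strand. After Med13l shRNA Hacd3 was at 0.20 (SE 0.11) in males and 0.18 in females, so this convergent pair did not move alike there. Slc24a1 lies 9298 bases away on the other side of Ints14. It was at -0.32 (SE 0.725) in males and -2.31 (SE 0.757) in females after Med13l shRNA. After Ash1l shRNA Hacd3 was at 0.25 in males and 0.35 in females (SE 0.11), the same direction as Ints14. Ints10, at chr8:68793929-68831667 on the plus strand with 19 exon blocks, also shares no exonic base. Its neighbours were at 0.43 and 0.31 (Csgalnact1, SE 0.20) and at -0.36 and 0.14 (Lpl, SE 0.22). Of the other subunits, Ints11 overlaps the opposite-strand gene Pusl1 over 22.7% of its exonic bases, Ints5 overlaps Gm49416 on the same strand over 14.3%, Ints8 overlaps Ccne2 over 8.15% and Ints2 overlaps Brip1os over 4.83%. How the counting treated strand is not given in the sources used here, so reads in these overlaps may belong to either gene. Ccne2, which lies opposite Ints8, was higher by 1.60 in males and 1.83 in females after Med13l shRNA, and its part in the Ints8 value was not tested.

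Some markers of cell type differed beside these values after Med13l shRNA. The summed neuronal markers were at 4067 to 4435 CPM in males and 3786 to 4400 CPM in females, against 5198 to 5234 and 4922 to 5593 CPM in controls. Of the 6 neuronal markers only Syt1, the calcium sensor of synaptic vesicle release, passed the threshold, at -2.52 and -2.16. The other neuronal markers did not follow it. They lay from -0.10 (Snap25) to 0.41 (Slc17a7) in males and from -0.24 (Map2) to 0.27 (Slc17a7) in females. The 3 markers of GABAergic neurons summed to 754 to 1009 CPM in males (controls 1169 to 1467) and to 603 to 1224 CPM in females (controls 927 to 1307). Slc32a1, the vesicular GABA transporter, was past the threshold in both sexes at -0.89 and -0.89, and Gad1 in males at -0.75. Top2a, a marker of dividing cells, was past it in males at -2.35 and was 1 of 5 in its list. No astrocyte, oligodendrocyte, microglial or endothelial marker was past the threshold. The part of these differences in the Ints14 and Ints10 values was not tested.

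The 5 genes whose group means followed Ints14 most closely over the 22 groups (log2 CPM, centred within sex) were Stk32b (r = 0.979), Fgd1 (0.972), Wiz (0.971), Wnk3 (0.970) and Noct (0.970). All 5 were lower after Med13l shRNA, from -1.05 (Noct) to -2.07 (Wiz) in males and from -0.75 (Noct) to -1.84 (Wnk3) in females. The choice of these 5 used the Med13l groups, where Ints14 was lowest, so their lower values there followed largely from the choice. Their r without the Med13l groups was not computed. These correlations are descriptions that share the same control libraries and the same Med13l groups. Among the subunits, Ints10 followed Ints14 with r = 0.942 over the 22 groups and 0.476 without the Med13l groups. For Ints13 the values were -0.685 and -0.024, and for Ints8 they were -0.643 and 0.113. Ints2 went from -0.338 to -0.812 without the Med13l groups. The groups left include Ash1l shRNA, with Ints2 at -0.56 and -0.52 and Ints14 at 0.27 and 0.21 (not called), and r without them was not computed. Over the 66 libraries, the deviations from the group means had r = 0.606 for Ints10 with Ints14 but r = 0.141 for Ints2 with Ints14. Ints8 with Ints13 had r = 0.675, whereas Ints1 ran opposite to Ints10 at r = -0.601 and to Ints13 at r = -0.583. These deviations are not independent. Female libraries of the same number shared them over all genes, with r = 0.466, 0.629 and 0.307 between nontargeting and no virus.

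In the 8 knockdowns that the choice of genes did not rest on, 2 of 160 subunit values (1.25%) were called, and both were Ints2 after Ash1l shRNA. Over all genes 1.64% of the values in the same 16 comparisons were called, so the count of the subunits is no higher than that background. Ash1l is a histone H3 lysine 36 methyltransferase, and its mRNA was at 24.8% of control in males and 27.0% in females. Ints2, which encodes a backbone subunit, measured 32.6, 34.0 and 37.2 CPM in male controls and 24.2, 23.2 and 22.9 CPM after Ash1l shRNA. In females it measured 31.6, 31.0 and 33.9 CPM in controls and 24.0, 21.7 and 21.7 CPM after Ash1l shRNA. All 6 Ash1l libraries were below all 6 nontargeting libraries. They were also below the lowest of the 60 libraries without Ash1l shRNA, at 24.8 CPM. For these 2 separations across the sexes the share of all genes was not counted. Within a sex, all Ash1l libraries were below their controls for 12.2% of all genes in males and 5.75% in females.

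Ints2 fell by 0.56 on the log2 scale in Ash1l-depleted males (SE 0.13, adjusted p = 0.00704, edgeR quasi-likelihood test with Benjamini-Hochberg adjustment over all genes) and by 0.52 in females (SE 0.13, adjusted p = 0.0257, same edgeR test). This left 67.8% of the control level in males (34.6 ± 2.36 against 23.4 ± 0.666 CPM) and 69.8% in females (32.2 ± 1.54 against 22.5 ± 1.30 CPM; SD, n = 3 each). It was 1 of 10 subunits called in each sex, where 1.98% of all genes were called in males and 1.1% in females (1.46% and 0.842% as lower). The effect in males minus that in females was -0.04 (SE 0.18). The male call was lost without nontargeting male replicate 3 (edgeR adjusted p = 0.0596). The female call was lost without any one of nontargeting replicates 1 and 3 and Ash1l replicates 1, 2 and 3 (edgeR adjusted p = 0.06 to 0.158), with a log2 fold change between -0.57 and -0.49 throughout, and also with no filter (0.0513), with each sex fitted separately (0.236) or with only the compared libraries (0.555). With the replicate block the female adjusted p by edgeR was 0.00393.

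The other 9 subunits were not called after Ash1l shRNA. The PP2A-binding subunit Ints5 was at 0.28 (SE 0.15) in males and 0.23 in females, and Ints14 was at 0.27 and 0.21 (SE 0.12). Ints9 was at 0.19 and 0.18, and Ints1 at -0.05 and -0.28 (SE 0.25). The median of the 10 subunits was 0.05 in males and 0.12 in females, beside 0.014 and 0.013 for all genes tested. Ints2, at chr11:86210681-86257575 on the minus strand with 24 exon blocks, has Med13 and Brip1 as neighbours, which were at -0.18 and -0.12 (SE 0.38) and at -0.42 and -0.33 (SE 0.58 and 0.57). Neither neighbour passed the threshold, and their errors were too wide to set them apart from Ints2.

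GABAergic markers fell beside Ints2 in the Ash1l cultures. Gad1, which makes GABA, fell by 1.36 in males (edgeR adjusted p = 3.18e-05) and fell by 1.204 in females (edgeR adjusted p = 0.00038), and Slc32a1 fell by 1.22 and 1.24 (edgeR adjusted p = 0.001 and 0.00134). The third marker, Gad2, was at -0.49 and -0.46. The summed level of the 3 genes was 558 to 712 CPM in males (controls 1169 to 1467) and 463 to 682 CPM in females (controls 927 to 1307). No marker of another list was called in these comparisons, and the neuronal sum of 4906 to 6048 CPM overlapped its controls. The part of the GABAergic markers in the Ints2 value was not tested.

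After depletion of Chd8, a chromatin remodelling ATPase, Ints2 and Ints9 had higher and Ints1 lower means in both sexes without passing the test. None of the 10 subunits was called by edgeR in either sex, where 9.82% of all genes were called in males and 9.33% in females. All Chd8 libraries were above their controls for 18.4% of all genes and 5 of the 10 subunits in males. In females this held for 10.1% of all genes and 1 of the 10 subunits. Ints2 measured 42.3, 42.6 and 44.3 CPM in males, above all 3 controls, and 41.8, 34.7 and 39.8 CPM in females, again above all 3 controls. Its log2 fold change was 0.32 in males (edgeR adjusted p = 0.115) and 0.27 in females (edgeR adjusted p = 0.211), with an SE of 0.13, in the opposite direction to its value after Ash1l shRNA. Ints9, the partner of the nuclease, was at 0.32 and 0.36 (SE 0.16; edgeR adjusted p = 0.219 and 0.157), and its male libraries of 14.4, 12.6 and 16.6 CPM were above the controls of 11.95, 11.15 and 11.8 CPM. The summed neuronal markers were lower beside these values, at 4365 to 4963 CPM in males (controls 5198 to 5234) and 4254 to 4625 CPM in females (controls 4922 to 5593). Of the markers, 1 of 6 neuronal and 1 of 3 GABAergic genes were called lower in each sex, and their part in the subunit values was not tested.

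Ints1 was lower after Chd8 shRNA in most libraries without passing the test. It measured 75.5, 64.9 and 82.4 CPM in males against the 104, 99.4 and 106 CPM of controls, and the groups did not overlap. In Chd8 males 20.5% of all genes and 3 of the 10 subunits lay wholly below their controls. In females Ints1 measured 45.2, 71.5 and 61.4 CPM against 69.6, 91.0 and 82.6 CPM, and the groups overlapped while each library was below the control of the same number. Its log2 fold changes were -0.47 for males (SE 0.25, edgeR adjusted p = 0.265) and -0.45 for females (SE 0.25, edgeR adjusted p = 0.309). No label names pairs of libraries. Deviations of same-numbered libraries correlated above the 0.1 set for pairing in both sexes, in males only just (r = 0.159, 0.123 and 0.136). With the replicate block Ints1 passed at -0.48 (edgeR adjusted p = 0.0259) and -0.47 (edgeR adjusted p = 0.0313). Ints2 passed with the block in males at 0.32 (edgeR adjusted p = 0.046). The shares of all genes called with the block were 22.1% in males and 21.1% in females.

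Setd5 shRNA in females gave a similar pattern for Ints1, which encodes the largest subunit. The libraries held 31.9, 90.2 and 46.7 CPM, so that 2 lay below all controls and replicate 2 lay among them. Against the controls Ints1 was at -0.53 (SE 0.25, edgeR adjusted p = 0.271), and no subunit was called where 3.12% of all genes were. With the replicate block it was -0.61 (edgeR adjusted p = 0.009, with 13% of all genes called). Without Setd5 female replicate 2 it was -1.05 (edgeR adjusted p = 0.0063), the only 1 of 6 fits leaving out 1 library in which Ints1 passed. Over those 6 fits Ints1 ran from -1.05 to -0.25, with an edgeR adjusted p up to 0.898. The uninfected females were as uneven for Ints1, at 47.3, 105 and 67.4 CPM with replicate 2 again the highest. Ints1 varied more than any other subunit between libraries of a group, with a pooled SD of 0.31 on the log2 CPM scale against 0.12 (Ints4) to 0.23 (Ints8) for the others.

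**Figure D4:**
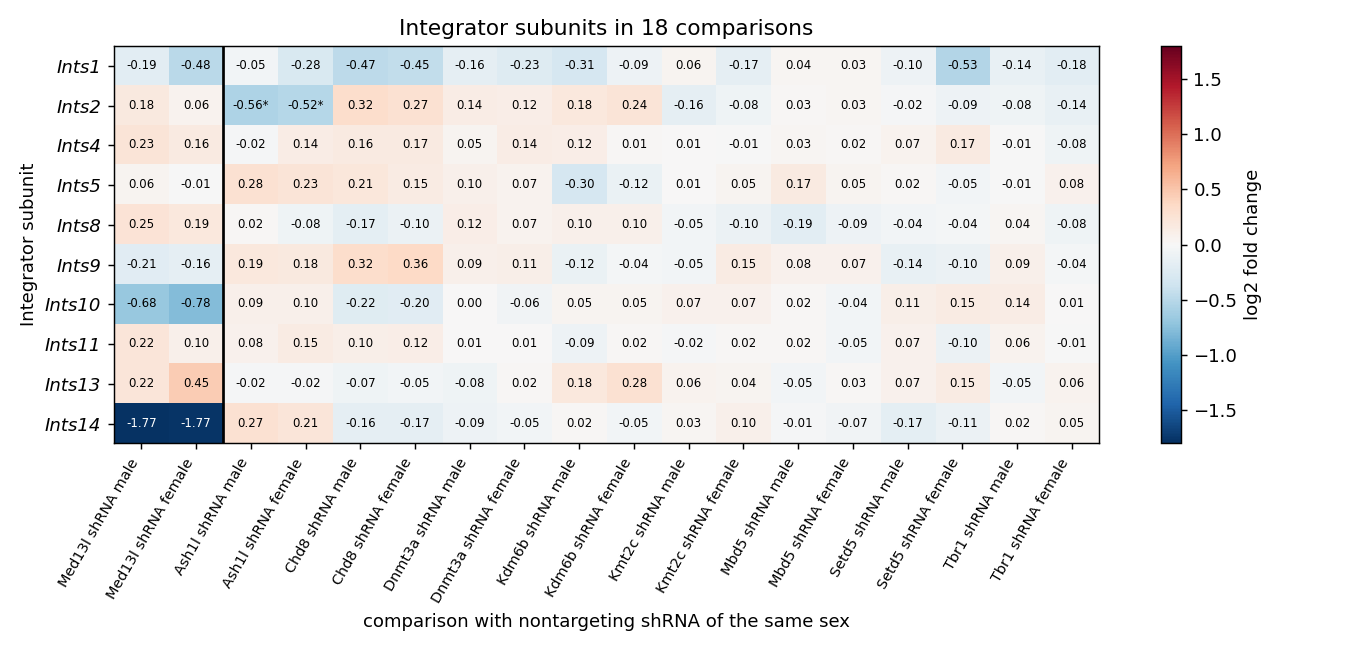
Log2 fold change against nontargeting shRNA of the same sex for each of the 10 Integrator subunits (rows) in the 18 knockdown comparisons (columns), blue for lower and red for higher. The 2 columns left of the black line are the Med13l comparisons that chose the genes and carry no test; asterisks mark the 2 called values, Ints2 after Ash1l shRNA in males (-0.56) and females (-0.52).

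No subunit was called in the remaining knockdowns either. By edgeR 0 of 10 were called after depletion of Dnmt3a (0.111% of all genes called in males and 0.118% in females), Kdm6b (0.0867% and 0%), Kmt2c (0.0867% and 0.0991%), Mbd5 (0.0619% and 0.0557%) or Tbr1 (0.217% and 0.0619%), or after Setd5 shRNA in males (0.0557%). Without the 2 male libraries that went against their labels, 1.25% of all genes were called in Setd5 males and 0.219% in Kdm6b males, with 0 of the 10 subunits in each. Few genes of any kind were called in these comparisons, so these counts say little about Integrator in particular. Over the 16 comparisons without Med13l, 9 of the 160 values (5.62%) had an unadjusted p under 0.05 against 8% over all genes, and the log2 fold changes ran from -0.56 to 0.36.

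The 9 comparisons of a sex share its 3 nontargeting libraries, so the values of a subunit within a sex are not independent. Over the 16 comparisons, Ints4 and Ints11 had the narrowest ranges, at -0.08 to 0.17 and at -0.10 to 0.15. Ints8 ran from -0.19 (Mbd5 males) to 0.12 (Dnmt3a males), and Ints13 from -0.08 (Dnmt3a males) to 0.28 (Kdm6b females). Ints5 had its lowest value of -0.31 in Kdm6b males, whose 3 libraries were all below the controls (-0.22 without the doubtful male libraries), and its highest of 0.28 in Ash1l males. In Kdm6b males all libraries were below their controls for 8.41% of all genes. Ints10 ran from -0.22 (Chd8 males) to 0.15 (Setd5 females) and Ints14 from -0.17 (Setd5 males) to 0.27 (Ash1l males). For Ints14 the 95% intervals of these 16 values all lay between -0.42 and 0.52, well short of the values after Med13l shRNA. Ints1 was positive in 3 of the 16 comparisons and Ints4 in 12.

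No difference between the sexes in the response of a subunit was called. Of 90 differences between the male and the female effect, 0 were called by edgeR and 0 had an unadjusted p under 0.05. The differences ran from -0.23 (Ints13, Med13l) to 0.43 (Ints1, Setd5), with SEs of 0.157 to 0.35. The Ints1 value has a 95% interval of -0.27 to 1.14 and rests on a male Setd5 group in which 1 of 3 libraries held Setd5 at the control level; without the 2 doubtful male libraries it was 0.42. At most 0.0186% of all genes (Setd5) were called for such a difference.

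Ints12 was the only Integrator subunit tested outside the 10 to be called, and only after Chd8 shRNA. Of Ints3, Ints6, Ints6l, Ints7 and Ints12, 0 of 5 were past the threshold after Med13l or Ash1l shRNA, with the values shown in the plot of 15 subunits by module. After Ash1l shRNA the uncalled values went both ways. Ints6, a PP2A-binding subunit, was at -0.30 (SE 0.14) in both sexes, and Ints7 was at 0.33 in males and 0.20 in females (SE 0.185). After Chd8 shRNA, where 9.82% and 9.33% of all genes were called, 1 of the 5 was called in each sex: Ints12, a small subunit that binds INTS1, rose by 0.62 in males (SE 0.13, edgeR adjusted p = 0.000893) and by 0.54 in females (SE 0.13, edgeR adjusted p = 0.00448). The female call was lost when only the compared libraries were fitted (edgeR adjusted p = 0.167).

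Few of the other genes that act with Integrator were called in both sexes of a knockdown. Of 17 genes for cleavage and polyadenylation of mRNA, 2 fell after Ash1l shRNA in each sex, with list medians of 0.09 and 0.05 beside 0.014 and 0.013 for all genes, of which 1.98% and 1.1% were called. They were the poly(A) polymerase Papola, by 0.85 (edgeR adjusted p = 8.02e-05) and 0.71 (edgeR adjusted p = 0.00211), and the cleavage stimulation factor Cstf2, by 0.45 (edgeR adjusted p = 0.0043) and 0.39 (edgeR adjusted p = 0.0261). The female Cstf2 call was lost without any one of 5 of its 6 libraries (edgeR adjusted p up to 0.167), and the male call without Ash1l replicate 3 (edgeR adjusted p = 0.0513). The female Papola call was lost when each sex was fitted separately (edgeR adjusted p = 0.0522) or when only the compared libraries were fitted (0.485). After Chd8 shRNA, Cstf2 fell by 0.58 and 0.57 (edgeR adjusted p = 2.69e-05 and 4.4e-05) while Cpsf2, a relative of INTS9 in the mRNA cleavage complex, rose by 0.64 and 0.60 (edgeR adjusted p = 0.000323 and 0.000774). These 2 were the only calls among the 17 in either sex, a share close to the 9.82% and 9.33% of all genes called, and the list medians were -0.04 and 0.015 beside 0. The female Cpsf2 call was lost without Chd8 female replicate 1 (0.42, edgeR adjusted p = 0.0554), and those of both genes when only the compared libraries were fitted (edgeR adjusted p = 0.197 and 0.133).

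The lists of Integrator's other partners held 2 of 12 and 1 of 6 calls after Chd8 shRNA, small counts beside the 9.82% and 9.33% of all genes. After Chd8 shRNA, of 12 genes of polymerase pausing and elongation, Larp7, which holds the 7SK RNA, rose by 0.76 and 0.85 (edgeR adjusted p = 0.00189 and 0.000464), and the cyclin Ccnt2 fell by 0.50 and 0.34 (edgeR adjusted p = 0.00197 and 0.0488). The female Ccnt2 call was lost without any one of its 6 libraries, and the female Larp7 call when only the compared libraries were fitted (edgeR adjusted p = 0.0931). Of 6 genes for PP2A, BRAT1 and the single-stranded DNA-binding partners of INTS3, Nabp1 fell by 0.95 and 0.85 (edgeR adjusted p = 0.0205 and 0.0427). Its female call was lost without any one of 5 of 6 libraries (edgeR adjusted p up to 0.317), and its male call without nontargeting replicate 1 (0.0808) or Chd8 replicate 3 (0.222). After Med13l shRNA, described without a test, Supt5, a pausing factor, was at -0.53 and -0.61, Papola at -0.68 and -0.53, Larp7 at 0.58 and 0.73, and Cstf2 at 0.37 and 0.32. The 12 subunits of RNA polymerase II had a median of 0.31 in males and 0.33 in females there, beside -0.007 and 0.002 over all genes, with 1 of 12 past the threshold in each sex. The 10 genes of small nuclear RNA transcription had medians of 0.05 and 0.08, with 0 of 10 past it in males and 3 of 10 in females, where 8.06% and 10.2% of all genes were past it.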

How the data were processed

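Counts per gene were deposited by the authors as 1 table of raw read counts, made with STAR and featureCounts on mm10, per the submitters' processing notes; their versions and the strand setting are not given in the sources used here. Of 72 library columns 66 were used, and 6 belong to no sample listed. Columns headed Luc were taken as the nontargeting samples by sex and replicate number. Of 48716 rows, 18483 had no symbol (0.69% to 1.415% of counts) and were left out, and 149 rows with a repeated symbol were summed, which gave 30084 symbols. Odd numbers made up 26.742% of counts from 1 to 20 and 49.067% of counts of 1000 or more, so even numbers prevail among low counts, and halved counts were an alternative. Totals ran from 13759741 to 66558546.

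Differences were tested in edgeR 4.0.16 (R 4.3.3) with filterByExpr, TMM factors (0.874 to 1.06), 1 mean for each of the 22 groups and a robust quasi-likelihood F test, adjusted by Benjamini-Hochberg over 16145 genes with a threshold of 0.05, after a test on simulated data. Levels are CPM, and log2 CPM used a prior count of 2. Levels per length used GENCODE M21 exons. Alternatives were RLE factors, DESeq2 1.42.0, no filter, halved counts, a replicate block, smaller sets of libraries, no virus as control, and leaving out each library. The main fit took no account of pairs, so its calls and missing calls ignore any pairing. Pairing of same-numbered libraries was judged from the data and not from the labels, by deviations that correlated above 0.1 in all 3 pairs. This held for all comparisons but Med13l, Ash1l and Kdm6b males and Kdm6b females (in Med13l females r was 0.513, 0.655 and 0.226). The replicate block was fitted as an alternative whether or not it held.

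The subunits and gene lists were chosen with earlier results of these data known. Named are all 10 subunits, Med13l, other Integrator and pathway genes called in both sexes of a knockdown in 1 direction, and the 5 genes most like Ints14; neighbours, overlapping genes and markers were added for context. Promoter windows came from RefSeq and were not found for 4 subunits.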

Additional observations from a re-analysis of the deposited data

How the results depend on the processing

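Of the single-gene values followed across the alternatives, 0 changed sign. These were chosen because they were called in the main fit or with the block, so a change of sign was unlikely from the start. A count of called subunits cannot reverse. Small uncalled values were not followed in this way and could change sign, as for Ints13 in Setd5 males (0.075, or -0.056 without the doubtful male libraries). Of the counts of called subunits 341 stayed the same or within 1.5 times and 18 moved. Many of these counts were 0 in comparisons with few calls of any kind, so they could hardly move. When 1 library was left out, sex differences that did not involve it kept their main values. Of the values for single genes 425 kept their side of the threshold, 67 no longer passed it and 12 newly passed it. With the replicate block the number of called subunits was 4 in Med13l females (main 2), 2 in Chd8 males (Ints1 and Ints2), 1 in Chd8 females (Ints1) and 1 in Setd5 females (Ints1; main 0 in each), and it changed no other count. When only the libraries compared were fitted, the count was 0 in Med13l females (Ints14 at -1.78, Ints10 at -0.78), 0 in Ash1l females and 2 in Chd8 males. With each sex fitted separately it was 0 in Ash1l females and 2 in Chd8 males, with no filter 0 in Ash1l females (Ints2 adjusted p = 0.0513, edgeR), and with no virus as control 1 in Chd8 females (Ints4 at 0.33, edgeR adjusted p = 0.0447). Leaving out 1 library gave 0 to 1 called subunits in Ash1l males, 0 to 1 in Ash1l females and 0 to 1 in Setd5 females. Over those fits Ints14 after Med13l shRNA was at -1.89 to -1.71 (males) and -1.94 to -1.60 (females), and Ints10 was at -0.75 to -0.59 and -0.84 to -0.70. The fits with fewer libraries estimate the spread from fewer samples; the cause of the other changes was not tested. No block was fitted for males against females, where replicate numbers are nested in sex.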

Other observations

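In Setd5-depleted females 2 genes of the lists around Integrator passed the test, and both are named after their values were seen. Hexim1, which holds the elongation kinase inactive together with the 7SK RNA, fell by 0.87 on the log2 scale (SE 0.25, edgeR adjusted p = 0.0456). Snapc3, a subunit of the factor that binds small nuclear RNA promoters, rose by 0.62 (SE 0.18, edgeR adjusted p = 0.0386). They were 1 of 12 genes of pausing and elongation and 1 of 10 genes of small nuclear RNA transcription, where 3.12% of all genes were called.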
